A study of Mus musculus with 12 samples.

Results

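The genes described here gave a signal above background in Rela-/-Relb-/-Rel-/- mouse embryonic fibroblasts (MEFs) and at the same probe gave none in Rela-/-Nfkb2-/- or WT MEFs. They were chosen by the readout itself. A probe with a gene symbol had to have a detection p-value under 0.05 on all 4 Rela-/-Relb-/-Rel-/- arrays, a detection p-value of at least 0.05 on all 8 arrays of the other genotypes, and a mean normalized signal of at least 150 on the 4 arrays. The detection p-value, given for each probe and array, compares the probe with negative control beads. In all, 111 probes met the rule, and with the brightest probe of each gene they gave 101 of the 16593 named genes on the array. All 101 were protein-coding genes. The same rule turned to the other genotypes gave 42 genes for Rela-/-Nfkb2-/- cells and 40 for WT cells.

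Each of 3 genotypes was read on 4 Illumina mouse BeadChips. Rela-/-Relb-/-Rel-/- cells lack RelA, RelB and cRel, Rela-/-Nfkb2-/- cells lack RelA and the p100 precursor and keep RelB and cRel, and WT cells keep all of these genes. In each genotype, TNF was given for 6 h at 10 ng/ml before 2 of the arrays, and the other 2 were of untreated cells. All cells were immortalized fibroblasts from C57BL/6 embryos, and nothing in the sources used here says whether a genotype was more than 1 line or whether same-group arrays came from separate cultures. The deleted genes and the line therefore cannot be told apart, and p-values measure the spread between these arrays, which may be technical. In bulk RNA, a signal from few cells and a weak signal from all cells cannot be told apart either. Of the targeted genes, Relb passed the detection threshold on a single Rela-/-Relb-/-Rel-/- array (log2 signal 5.54 to 6.21, against 7.88 to 9.46 in Rela-/-Nfkb2-/- and 9.16 to 11.12 in WT cells) and Rel passed it on none of the 12 arrays. Rela passed it on all 12 arrays, at 10.05 to 10.75 in Rela-/-Relb-/-Rel-/-, 10.28 to 10.80 in Rela-/-Nfkb2-/- and 12.60 to 13.22 in WT cells. Nfkb2, targeted in Rela-/-Nfkb2-/- cells, also passed it on all 12, at 6.97 to 8.57, 7.23 to 8.83 and 8.64 to 10.01 in these genotypes, so its probe does not check that label. The position of their probes against the deletions was not determined.

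NF-κB proteins are dimeric transcription factors, and RelA, RelB and cRel are the members with a transactivation domain. TNF activates them in fibroblasts and, in parallel, MAP kinases that act on AP-1 factors. Fibroblasts are mesenchymal cells, whereas keratins, uroplakins, claudins and the transcription factor Wt1 are best known from epithelia, from the urothelium and from the mesothelium, the sheet of cells that lines the body cavities.

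The signal of each member on each array was described first, with no test, since these values chose the genes. Signals are the authors' background-subtracted, quantile-normalized intensities in arbitrary units. They can be compared between arrays for a probe, not between probes, so an order of members by signal is no order of RNA amounts. The members' means over the 4 Rela-/-Relb-/-Rel-/- arrays ran from 152 to 11073 with a median of 412, and 23 members were at 1000 or more, 19 between 500 and 1000, and 59 below 500. On the 8 other arrays the members' signals lay between -25.8 and 45.6 with a median of -3.38, and for 80 of the 101 members no detection p-value there was below 0.1.

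**Figure D1:**
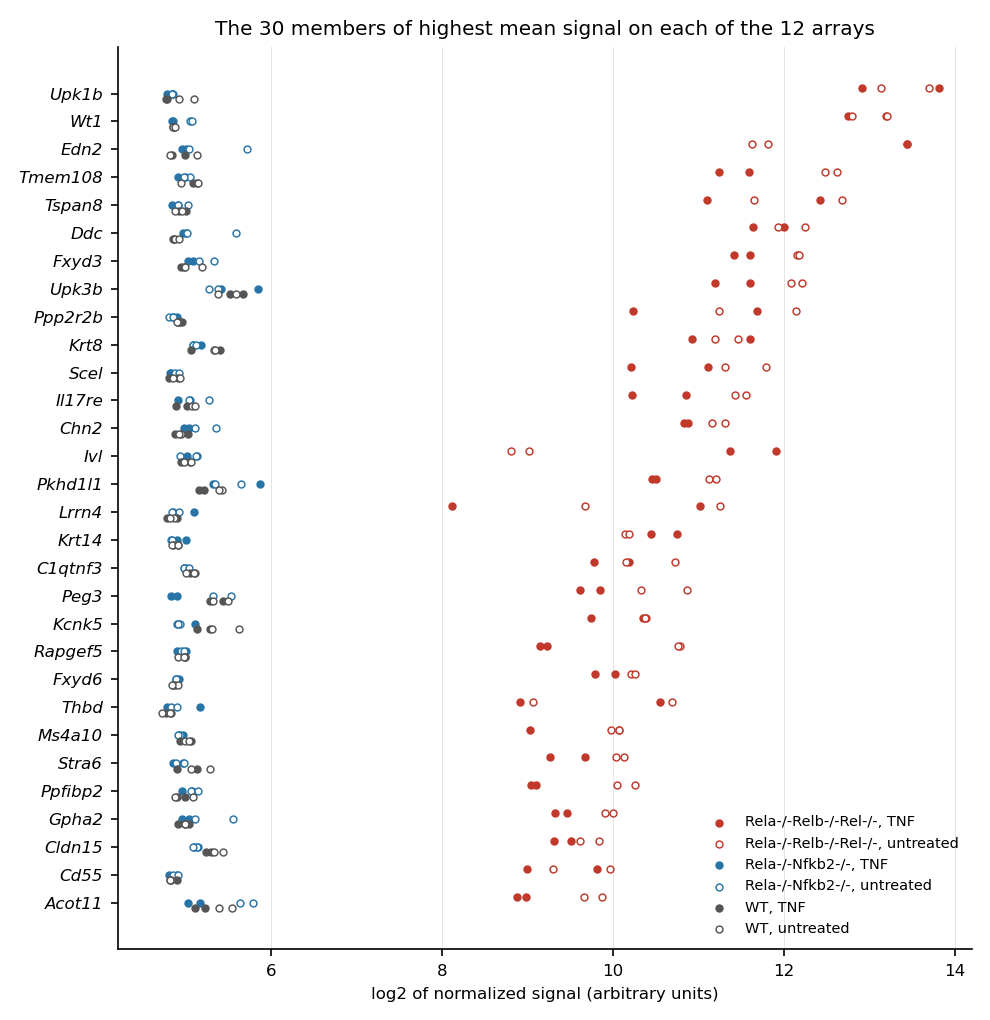
The 30 members of highest mean signal, 1 row each, with the log2 normalized signal of each of the 12 arrays on the horizontal axis (filled points TNF, open points untreated). For every gene shown, all 4 Rela-/-Relb-/-Rel-/- arrays lie to the right of all 8 arrays of Rela-/-Nfkb2-/- and WT cells, which stay between 4.72 and 5.99.

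Several members are known from mesothelium and urothelium. Upk1b, a uroplakin of the urothelial plaque that is also expressed by mesothelium, had signals of 7696 and 14355 on the TNF arrays and 8976 and 13263 on the untreated arrays, against -21.6 to 2.38 in Rela-/-Nfkb2-/- and WT cells. Wt1, a zinc finger transcription factor of kidney, gonad and mesothelium, had 6916 and 9389 with TNF and 7137 and 9470 untreated, against -15.1 to 1.41 on the 8 other arrays. For both genes replicate 2 was the higher array in both treatments, and the TNF and untreated arrays overlapped. Upk3b, another uroplakin, had 2335 and 3108 with TNF and 4324 and 4738 untreated, against 12.0 to 38.8 elsewhere. Among the genes of this paragraph Lrrn4, a leucine-rich repeat protein, varied most between replicates. It had 259 and 2063 with TNF and 800 and 2430 untreated, against -20.4 to 2.45 elsewhere.

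How far these signals stood above the other genotypes can only be bounded, because a signal not above background has no lower limit. On the background-corrected log2 scale used for the fits, the bound set the mean of the 2 Rela-/-Relb-/-Rel-/- arrays of a treatment against, for each array of the other genotype, the higher of the probe's own value and the lowest value of any probe above background. The lowest of the 4 bounds (over Rela-/-Nfkb2-/- and over WT, with TNF and untreated) was at least 166-fold for Upk1b and at least 126-fold for Wt1. It was at least 42.5-fold for Upk3b and at least 11.9-fold for Lrrn4. Over the 101 members the lowest bound ran from 1.62-fold (Prph) to 166-fold with a median of 4.77-fold. It was 10-fold or more for 27 members and under 2-fold for 5.

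A list of 16 genes known from mesothelium was gathered after the values were seen, so their counts are a description. Of the 15 on the array, 12 were above background on all 4 Rela-/-Relb-/-Rel-/- arrays, 4 on all Rela-/-Nfkb2-/- arrays and 4 on all WT arrays, reading each gene at its brightest probe. Their summed signal was 35185 to 63885 in Rela-/-Relb-/-Rel-/- cells, 593 to 913 in Rela-/-Nfkb2-/- cells and 2286 to 3019 in WT cells. Of these genes 8 are members, Upk1b, Upk3b, Wt1, Lrrn4, Krt8, Gpm6a, Rspo1 and Cldn15. The rule itself put the probe it picked for each high in the first genotype and at background in the others. For Upk3b and Cldn15 the brightest probe, read here, was a different one. It was above background on some arrays of the other genotypes for Upk3b and on all of them for Cldn15. Over the 7 genes that are no members, 4, 3 and 3 were above background on all arrays of these genotypes, with summed signals of 12592 to 24448, 376 to 641 and 2016 to 2731. Msln, which encodes mesothelin, was no member because it was above background on all 12 arrays, with means of 11564 in Rela-/-Relb-/-Rel-/-, 183 in Rela-/-Nfkb2-/- and 1075 in WT cells. Msln and Bnc1, which had means of 5845, 33.3 and 751, made up most of the first sum of these 7 genes. Aldh1a2, another of the 7, had about the same mean in all genotypes (48.8, 42.7 and 44.6). Calb2, which encodes the mesothelial marker calretinin, and Krt18, the usual partner of Krt8, were not above background on any array.

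Further members are structural genes of epithelia. Krt8, a keratin of simple epithelia, had 1933 and 3094 with TNF and 2335 and 2800 untreated, against 0.435 to 18.4 on the other arrays. Krt14, a keratin of basal epidermal cells, had 1713 and 1376 with TNF and 1114 and 1152 untreated, against -16.4 to -3.38. Krt14 was higher on both TNF arrays than on both untreated arrays, whereas the Krt8 arrays overlapped. Scel, a precursor of the cornified envelope of skin, had 1174 and 2200 with TNF and 2540 and 3546 untreated, and Cldn15, a tight junction claudin, had 616 and 711 with TNF and 765 and 899 untreated. Jup, which encodes the junction protein plakoglobin, and Esrp2, an epithelial splicing regulator, had means of 186 and 245.

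Of the 9 genes of an epithelial marker list on the array, 5 were above background on all 4 Rela-/-Relb-/-Rel-/- arrays, 2 on all Rela-/-Nfkb2-/- arrays and 2 on all WT arrays, and its summed signal was 4024 to 5146, 298 to 380 and 204 to 216 in these genotypes. The members Krt8 and Krt14, placed by the rule, made up most of the first sum. Over the other 7 genes the counts were 3, 2 and 2 and the sums 449 to 704, 294 to 373 and 189 to 207. Cdh1, which encodes E-cadherin, had about the same mean in all of them (70.2, 69.6 and 75.1), and Krt5, Krt18, Cldn4 and Ocln were not above background on any array. Among all keratin genes on the array, 6 of 44 were above background on all 4 Rela-/-Relb-/-Rel-/- arrays, 4 of 44 on all Rela-/-Nfkb2-/- arrays and 3 of 44 on all WT arrays, and without the members Krt8 and Krt14 these counts were 4, 4 and 3. Claudin genes ran the other way, with 4, 5 and 5 of 23. Cldn1 had means of 53.8 in Rela-/-Relb-/-Rel-/-, 833 in Rela-/-Nfkb2-/- and 1122 in WT cells. Krt15 came close to being a member, with a mean of 993 in Rela-/-Relb-/-Rel-/- cells and 1 array above background in each other genotype (means 36.3 and 41.0).

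Fibroblast markers were checked beside these genes. Of 10 on the array, 7 were above background on all 4 Rela-/-Relb-/-Rel-/- arrays, 9 on all Rela-/-Nfkb2-/- arrays and 8 on all WT arrays, with summed signals of 33867 to 53837, 65553 to 90595 and 42332 to 46969. The collagen gene Col1a1 had means of 12220, 21899 and 8934 and the proteoglycan gene Dcn had 16669, 8780 and 8504. Col3a1, like Dcn, was highest in Rela-/-Relb-/-Rel-/- cells, with 4151, 1890 and 495. Lowest there were Vim, with 10100, 15997 and 21617, and Pdgfra, with 279, 10955 and 1077. So was Pdgfrb, with 36.0, 778 and 486, above background on 1 Rela-/-Relb-/-Rel-/- array. Thy1 and Lum were not above background on any Rela-/-Relb-/-Rel-/- array, and Thy1 was not in WT cells either. The marker lists of other cells included no member. Counts above background on all 4 arrays are given for Rela-/-Relb-/-Rel-/-, Rela-/-Nfkb2-/- and WT cells in this order. They were 0, 0 and 0 of 3 leukocyte genes, 1, 2 and 1 of 6 endothelial, 1, 2 and 1 of 7 skeletal muscle, 2, 2 and 2 of 4 smooth muscle and 1, 1 and 3 of 8 neuronal genes. They were 1, 0 and 0 of 5 neural crest and glial genes, 2, 2 and 2 of 6 adipocyte, 1, 2 and 3 of 7 cartilage and bone and 1, 1 and 2 of 11 pluripotent or germ cell genes. The summed signals of the adipocyte genes were 25700 to 29906, 1660 to 10350 and 358 to 951, with means of 27869, 5227 and 104 for the lipase gene Lpl. Cartilage and bone genes ran the other way, with 173 to 405, 559 to 1256 and 4095 to 5019. The part of other cell types in the members' signals was not tested.

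Some members encode secreted signals or their receptors, grouped here by hand. Edn2, which encodes the vasoconstrictor peptide endothelin-2, had 11136 and 11150 on the TNF arrays and 3593 and 3150 on the untreated arrays, against -17.5 to 33.0 elsewhere. Wnt ligands act on neighbouring cells through Frizzled receptors. Of 19 Wnt genes on the array 4 were members, Wnt2, Wnt3, Wnt4 and Wnt11, and the fifth that was above background on all 4 arrays, Wnt5a, was so on all 12 arrays. In Rela-/-Nfkb2-/- and in WT cells 2 of the 19 each were above background on all 4 arrays. Wnt10b was so in WT cells, with a mean of 183, and was above background on no array of the other genotypes. Wnt2 had 365 and 980 with TNF and 276 and 568 untreated, against -14.7 to -2.95 elsewhere. Wnt3 (179 to 192), Wnt4 (126 to 191) and Wnt11 (109 to 188) had lower signals on the 4 arrays. Rspo1, a secreted enhancer of Wnt signalling, and Lgr5, a receptor for R-spondins, were members as well. Rspo2 went the other way, with means of 774 in Rela-/-Nfkb2-/- and 1281 in WT cells and no array above background in Rela-/-Relb-/-Rel-/- cells.

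Other ligands and surface receptors included Gpha2, a glycoprotein hormone subunit (624 to 1007), C1qtnf3, a secreted protein of the C1q and TNF related family (866 to 1678), and Gal, the neuropeptide galanin (183 to 403). Il17re, a subunit of an interleukin receptor, had 1830 and 1178 with TNF and 2739 and 3005 untreated. Stra6, the cell surface receptor for retinol-binding protein, had 596 and 802 with TNF and 1109 and 1038 untreated. In both receptors each TNF array was below each untreated array. Thbd, the thrombin receptor thrombomodulin, followed the replicate and not the treatment, with 464 and 1481 with TNF and 518 and 1642 untreated. Cd55, which protects cells from complement, had 491 and 886 with TNF and 610 and 987 untreated.

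Membrane transport and metabolism made up another group. Fxyd3 and Fxyd6 encode small regulators of the sodium pump, and Fxyd3 had 3098 and 2723 with TNF and 4562 and 4640 untreated, while Fxyd6 had 1026 and 868 with TNF and 1172 and 1208 untreated. The family held 7 genes on the array, of which Fxyd5 alone was above background on all arrays of the other genotypes. The potassium channel gene Kcnk5 had 1293 and 845 with TNF and 1320 and 1309 untreated, and its relative Kcnk6 had 377 and 103 with TNF and 100 and 64.5 untreated. Ddc, the decarboxylase that makes dopamine and serotonin, had 4103 and 3183 with TNF and 4848 and 3908 untreated. Acot11, an acyl-CoA thioesterase, Car2 and Car3, carbonic anhydrases, and the steroidogenic genes Star and Cyp11b1 had means of 664, 153, 291, 154 and 156. In Rela-/-Relb-/-Rel-/-, Rela-/-Nfkb2-/- and WT cells, 6, 3 and 4 of 12 carbonic anhydrase genes were above background on all 4 arrays. For Kcnk genes it was 2, 1 and 1 of 13. Car13 and Kcnk2 ran the other way, above background on no Rela-/-Relb-/-Rel-/- array. Their means were 1351 and 567 in Rela-/-Nfkb2-/- and 459 and 471 in WT cells. Tspan8, a tetraspanin, had 2183 and 5481 with TNF and 3196 and 6575 untreated, and Ms4a10, a membrane protein, ran from 502 to 1061. Pkhd1l1, a fibrocystin-like protein, ran from 1385 to 2345.

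Further members act inside the cell. Tmem108, a transmembrane protein known from neurons, had 2414 and 3080 with TNF and 6337 and 5721 untreated. Chn2, a Rac GTPase-activating protein, ran from 1805 to 2527, and Ppp2r2b, a regulatory subunit of protein phosphatase 2A, from 1185 to 4506. Rapgef5, an exchange factor for Rap GTPases, had 547 and 584 with TNF and 1743 and 1724 untreated, and Ppfibp2, a liprin, had 532 and 508 with TNF and 1210 and 1043 untreated. Rapgef5 and Ppfibp2 thus fell in separate ranges by treatment, with close replicates. Peg3, a zinc finger gene expressed from the paternal allele, had 765 and 910 with TNF and 1854 and 1272 untreated, against -16.6 to 24.4 elsewhere. Of 8 imprinted genes on the array Peg3 was the only member. Igf2, another of them, was above background on all 12 arrays with means of 28159 in Rela-/-Relb-/-Rel-/-, 756 in Rela-/-Nfkb2-/- and 196 in WT cells, and Dlk1 was not above background in Rela-/-Relb-/-Rel-/- cells, with means of 5368 and 8389 in the other 2.

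The absence from other genotypes held for the probe and not always for the gene. For 61 members the array had 1 probe, and for the other 40 it had 65 further probes. Of these, 10 met the rule, 23 were not above background on any array, and 16, of 15 members, were above background on at least 1 array of Rela-/-Nfkb2-/- or WT cells. In 1700123O20Rik, Cldn15, Clec2e and Sgk3 another probe was above background on all 8 of those arrays. The second Cldn15 probe had means of 1133 in Rela-/-Relb-/-Rel-/-, 209 in Rela-/-Nfkb2-/- and 190 in WT cells, and that of 1700123O20Rik had 4021, 3461 and 2137. Upk3b had a brighter probe with means of 6689, 40.8 and 54.3, above background on 2 Rela-/-Nfkb2-/- and 3 WT arrays. The second Upk1b probe was not above background on any array, and Wt1 had no further probe.

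The thresholds cut through a continuous range. Just inside the level threshold were Plekha6 (151.9), Car2 (152.8) and Star (153.8), and just outside were Hr (142.2), B4galt4 (141.7) and Pgm5 (140.7). By the lowest detection p-value on the 8 other arrays, Clec2e (0.0526), Treml1 (0.0539) and Tns4 (0.0576) were just inside and Dync1i1 (0.0489), Grhl1 (0.0476) and Ctsw (0.0451) just outside. Ptger3 (0.0439), Prph (0.0188) and Kcnk6 (0.0113) had the highest detection p-values on the Rela-/-Relb-/-Rel-/- arrays.

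The response of the members to TNF within Rela-/-Relb-/-Rel-/- cells was not used by the rule and was tested. A limma model with a mean for each of the 6 groups was fitted to log2 signals of 13387 probes, and a member "rose" or "fell" at a Benjamini-Hochberg adjusted p under 0.05 over all of them. All 101 members were tested, 7 rose (6.93%), 10 fell (9.90%) and 84 were not called. Of all probes tested, 148 rose (1.11%) and 90 fell (0.672%), and of the 10801 probes above background on all 4 arrays 0.972% rose and 0.602% fell. These shares cannot be set side by side as they stand. The model shares the spread of all 12 arrays, and the rule put the members at background on 8 of them, where log2 values vary little. The median within-group SD of the members was 0.30 on the 4 Rela-/-Relb-/-Rel-/- arrays and 0.09 on the 8 others, against 0.25 and 0.21 for the 10801 probes, so the members' standard errors were too small for their own arrays.

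In a fit of the 4 arrays alone, 0 of the 101 members and 0 of the 13387 probes passed, and the lowest adjusted p of a member was 0.22. At an unadjusted p under 0.05 in that fit, 8 members were higher with TNF (7.92%, against 4.65% of the 10801 probes) and 23 were lower (22.8%, against 4.19%). By size alone, 6 members had a log2 change above 1 (5.94%, against 1.43%) and 11 below -1 (10.9%, against 1.04%). The median log2 change was -0.33 over the members and -0.02 over the 10801 probes, and 71 members (70.3%) lay below 0, against 51.9% of the probes. In 18 members (17.8%, against 19.2%) both TNF arrays were above both untreated arrays, and in 42 (41.6%, against 20.4%) both were below. Among the members lower values with TNF were thus more frequent than among detected probes by each of these counts, while higher values were not by the last.

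**Figure D2:**
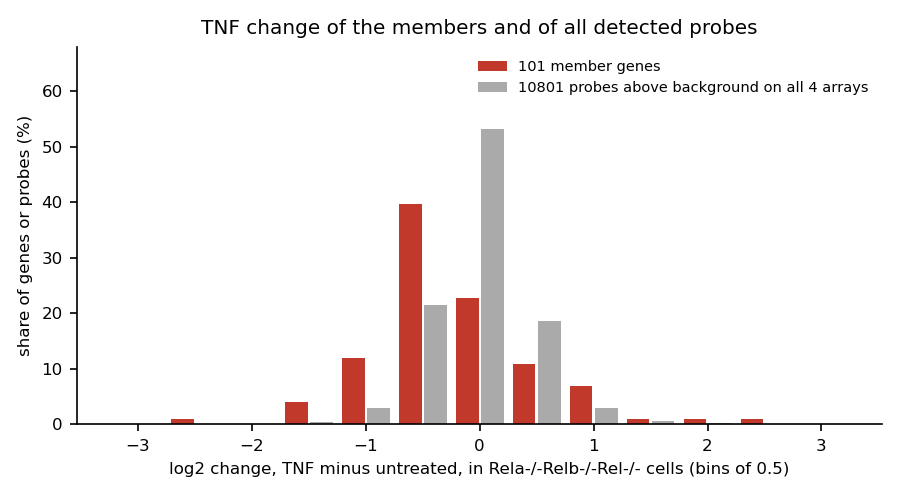
Share of genes or probes (vertical axis, %) in bins of the log2 change, TNF minus untreated, in Rela-/-Relb-/-Rel-/- cells (horizontal axis). Left bars of each bin are the 101 members and right bars the 10801 probes above background on all 4 arrays. The members' bars peak 1 bin below 0, at 39.6%, and the probes' bars peak at 0, at 53.2%.

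Ivl, which encodes involucrin of the cornified envelope, had the largest rise. Its log2 signals were 11.36 and 11.90 on the TNF arrays and 8.80 and 9.02 on the untreated arrays, a change of 2.72 ± 0.20 (SE, n = 2 arrays each, adjusted p = 8.25e-04, limma). F2rl2, which encodes the protease-activated receptor PAR3, had 9.59 and 9.48 with TNF and 7.71 and 7.01 untreated, a change of 2.18 ± 0.21 (adjusted p = 0.00294, limma). Edn2 had 13.44 and 13.44 with TNF and 11.81 and 11.62 untreated, a change of 1.72 ± 0.22 (adjusted p = 0.00811, limma). In each of these the treatments did not overlap, and the gap between them was larger than the distance between replicates. Ivl and F2rl2 were called in all 12 fits with 1 array left out, whereas Edn2 was called in 10. These fits still pool the arrays on which the rule put the members at background, so they share the fault of the standard errors. On their own 4 arrays the adjusted p was 0.22 for Ivl, 0.34 for F2rl2 and 0.22 for Edn2 (limma).

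Of the other rises, Cyp11b1, a steroid hydroxylase of the adrenal cortex, changed by 1.19 ± 0.16 (adjusted p = 0.00858, limma) and Dapk2, a death-associated protein kinase, by 0.98 ± 0.15 (adjusted p = 0.0164). Foxa2, a forkhead transcription factor of endoderm, changed by 0.80 ± 0.14 (adjusted p = 0.026, limma) and Gal by 0.80 ± 0.16 (adjusted p = 0.0473). With 1 array left out Foxa2 was called in 3 of 12 fits and Gal in 0. Of the family neighbours of these genes, Edn1 was above background on all 12 arrays, with means of 812 in Rela-/-Relb-/-Rel-/-, 244 in Rela-/-Nfkb2-/- and 182 in WT cells, and the thrombin receptor gene F2r had 24258, 22210 and 20211.

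Rhbdl3, a rhomboid family membrane protein, had the largest fall. Its log2 signals were 6.66 and 7.10 with TNF and 9.18 and 9.85 untreated, a change of -2.64 ± 0.23 (adjusted p = 0.00173, limma). Rapgef5 had 9.14 and 9.23 with TNF and 10.78 and 10.76 untreated, a change of -1.58 ± 0.13 (adjusted p = 0.00145, limma). Prph, which encodes the neuronal intermediate filament peripherin, had 6.36 and 7.02 with TNF and 8.14 and 8.19 untreated, a change of -1.48 ± 0.20 (adjusted p = 0.00981, limma). Rhbdl3 and Rapgef5 were called in all 12 fits with 1 array left out, and Prph in 10, while on their own 4 arrays the adjusted p was 0.262 for Rhbdl3, 0.25 for Rapgef5 and 0.411 for Prph (limma).

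The Wnt enhancer Rspo1 and its receptor Lgr5 both fell in the fit of all 12 arrays. Rspo1 had log2 signals of 7.30 and 6.88 with TNF and 8.69 and 8.09 untreated, a change of -1.30 ± 0.22 (adjusted p = 0.0222, limma). Lgr5 had 7.20 and 7.00 with TNF and 8.21 and 8.42 untreated, a change of -1.22 ± 0.15 (adjusted p = 0.00582, limma). Of the Wnt ligands none passed, with changes of 0.57 for Wnt2, -0.04 for Wnt3, -0.05 for Wnt4 and -0.38 for Wnt11 (adjusted p = 0.466 to 0.971, limma). Lgr5 was called in 11 of 12 fits with 1 array left out, and Rspo1 in 5. Sh3rf2 changed by -1.17 ± 0.14, Tmem108 by -1.13 ± 0.16, Ppfibp2 by -1.08 ± 0.15, Acot11 by -0.84 ± 0.15, and Dnajc6, which encodes the clathrin uncoating factor auxilin, by -0.82 ± 0.16. Acot11 and Dnajc6 were called in 2 of the 12 fits each. Dapk2, Ppfibp2 and Acot11 each had a brighter probe that missed the rule, with means of 2604, 2034 and 2399 in Rela-/-Relb-/-Rel-/- cells. Each of these was above background on at least 1 array of another genotype. In a fit with 1 probe per gene 89 members were tested, 6 rose and 8 fell. A member could drop out of that fit where another probe of its gene was brighter. Dapk2, Ppfibp2 and Acot11 were not among those called, which therefore cannot be read as no response. The TNF change of their brighter probes is not given here.

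**Figure D3:**
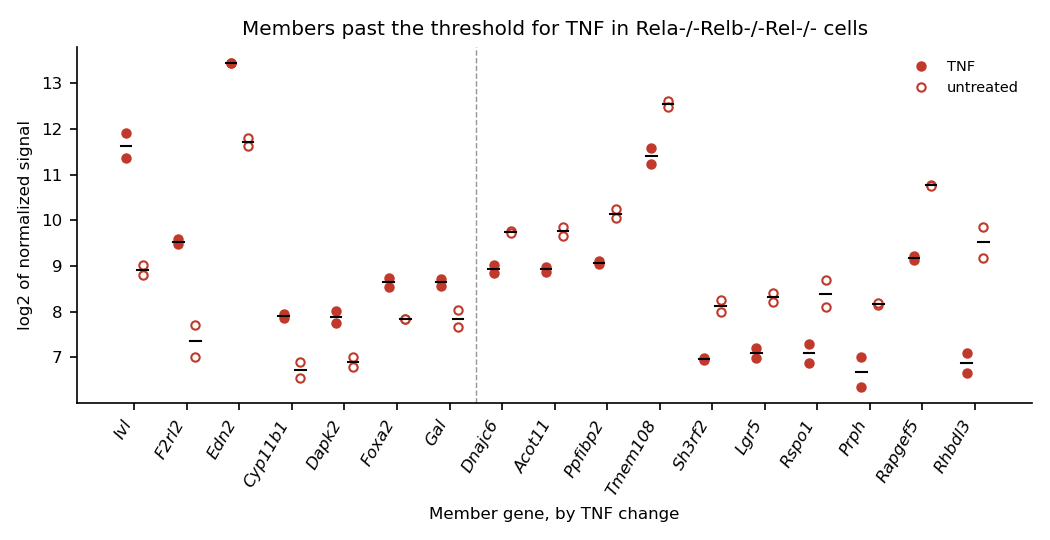
Log2 normalized signal (vertical axis) of the 17 members past the threshold, in order of their TNF change, on the TNF arrays (filled, left) and untreated arrays (open, right) of Rela-/-Relb-/-Rel-/- cells. Bars mark the means of 2 arrays, and the dashed line separates the 7 that rose from the 10 that fell. The largest gaps are those of Ivl (2.72) and Rhbdl3 (-2.64).

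Genes that TNF usually induces were read from lists beside the members, none of which is a member. In Rela-/-Relb-/-Rel-/- cells 2 of 17 tested genes on an NF-κB target list rose and none fell, with a median log2 change of 0.30, and 7 of 13 tested immediate early genes rose and none fell, with a median of 1.58. The uroplakin and Wt1 probes did not pass: Upk1b changed by -0.05 ± 0.29, Wt1 by -0.03 ± 0.19 and Upk3b by -0.74 ± 0.20 (adjusted p = 0.977, 0.981 and 0.122, limma). Krt8 changed by -0.06 ± 0.23 and Krt14 by 0.43 ± 0.15 (adjusted p = 0.963 and 0.207). Peg3, at -0.87 ± 0.20, and Fxyd3, at -0.66 ± 0.15, were the nearest to the threshold among the 30 members of highest mean signal beside Il17re, at -0.96 ± 0.21 (adjusted p = 0.078, 0.0684 and 0.0637).

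Part of the members' spread followed the replicate number. Across the 101 members the difference of replicate 2 minus replicate 1 with TNF and untreated correlated by Pearson's r = 0.76 and Spearman's rho = 0.53, a description over genes of the same 4 arrays. The r over the 10801 probes was 0.71. The SD of that difference was 0.82 with TNF and 0.57 untreated over the members, against 0.66 and 0.48 over the probes. Lrrn4, Gpm6a, Ptger3, Nfe2l3, Thbd, Ms4a2 and Tspan8 were more than 1 log2 unit higher in replicate 2 under both treatments (6.93%, against 4.59% of the probes), and 0 members were more than 1 lower under both.

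The prostaglandin receptor gene Ptger3 showed the widest gap. Its log2 signals were 5.90 and 8.82 with TNF and 7.85 and 9.79 untreated. The glycoprotein gene Gpm6a had 6.62 and 8.97 with TNF and 7.88 and 9.77 untreated, and Lrrn4 had 8.11 and 11.02 with TNF and 9.67 and 11.25 untreated. For these genes each replicate was lower with TNF than its untreated counterpart of the same number, while the treatments overlapped as groups. None passed in the fit of group means alone (adjusted p = 0.479, 0.591 and 0.706, limma). With a replicate block within genotype Ptger3 and Gpm6a were called as falling and Lrrn4 was not, in a fit that also pools the arrays at background. The labels do not say that equal numbers mark a shared culture or day.

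**Figure D4:**
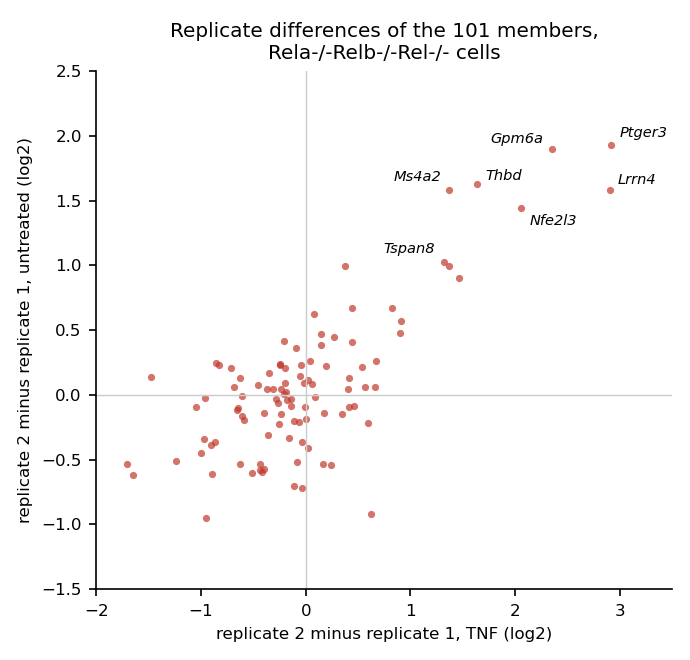
Each point is 1 of the 101 members in Rela-/-Relb-/-Rel-/- cells, with the log2 difference of replicate 2 minus replicate 1 on the TNF arrays (horizontal axis) and on the untreated arrays (vertical axis). The 7 labelled genes exceed 1 on both axes, and Ptger3 and Lrrn4 lie farthest to the right.

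The promoter windows of the members were read to see what they share beyond the rule. RefSeq windows of 300 bases, 250 before and 50 after the start site (build GRCm38.p6), were matched for 74 of the 101 members and for 13335 named genes on the array. The windows of the 3 members with the largest rises after TNF and of Prph, 1 of the members that fell, are shown 5′ to 3′ on the gene's strand. Capitals mark TATAAA and TGANTCA, searched on both strands, which do not overlap here. TGANTCA takes in the AP-1 motif, TGAGTCA or TGACTCA, and also TGATTCA and TGAATCA.
Ivl, chr3:92573686-92573985, minus strand: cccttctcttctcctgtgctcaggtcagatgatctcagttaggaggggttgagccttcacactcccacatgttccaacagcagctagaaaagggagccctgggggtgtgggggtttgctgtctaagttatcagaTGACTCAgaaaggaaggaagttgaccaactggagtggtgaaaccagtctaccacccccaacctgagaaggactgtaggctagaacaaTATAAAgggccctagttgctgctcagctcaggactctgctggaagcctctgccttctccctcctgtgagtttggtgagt
F2rl2, chr13:95696670-95696969, plus strand: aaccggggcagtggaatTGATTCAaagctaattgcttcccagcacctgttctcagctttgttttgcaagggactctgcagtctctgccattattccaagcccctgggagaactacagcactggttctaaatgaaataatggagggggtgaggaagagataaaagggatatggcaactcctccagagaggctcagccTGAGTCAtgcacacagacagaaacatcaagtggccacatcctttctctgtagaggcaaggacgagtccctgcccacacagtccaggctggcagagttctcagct
Edn2, chr4:120160956-120161255, plus strand: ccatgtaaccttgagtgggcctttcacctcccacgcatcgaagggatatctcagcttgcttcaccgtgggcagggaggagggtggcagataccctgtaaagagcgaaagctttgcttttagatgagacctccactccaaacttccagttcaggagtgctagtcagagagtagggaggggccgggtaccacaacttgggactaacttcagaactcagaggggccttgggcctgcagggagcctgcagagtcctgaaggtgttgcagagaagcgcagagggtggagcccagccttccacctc
Prph, chr15:99054924-99055223, plus strand: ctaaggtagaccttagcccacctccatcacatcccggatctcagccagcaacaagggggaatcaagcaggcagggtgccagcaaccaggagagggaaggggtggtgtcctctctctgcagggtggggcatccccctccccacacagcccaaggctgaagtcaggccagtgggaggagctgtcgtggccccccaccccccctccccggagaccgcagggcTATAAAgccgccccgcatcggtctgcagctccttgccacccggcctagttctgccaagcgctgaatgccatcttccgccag

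In Ivl the window held TATAAA at position -29 and TGACTCA at -116, in F2rl2 it held TGATTCA at -233 and TGAGTCA at -54, and in Prph it held TATAAA at -31, counted from the start site. The Edn2 window held neither motif. Over the members with a window, 14 of 74 held TATAAA (18.9%, against 14.3% of the named genes on the array), 7 held TGANTCA (9.46%, against 8.39%) and 6 held a κB motif (8.11%, against 5.75%), so these shares lay near those of the array. The narrower TGAGTCA or TGACTCA was held by 5 of the 74 (6.76%, against 5.50%). Of the members that rose with TNF, 2 of 6 with a window held TGANTCA, and of those that fell, 0 of 7. The κB motif was held by 0 of 6 that rose and by 2 of 7 that fell (28.6%), Prph among them, where it is not in capitals. A match is a run of letters and not a measured site.

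In CpG content the members stood lower than the array. The ratio of observed to expected CpG had a median of 0.49 over the members' windows, against 0.67 over the array, taking the highest window of a gene, and 47 of 74 members (63.5%, against 44.3%) were below 0.6. The GC content differed less, with medians of 60.3% and 58.3%. Genes that met the mirrored rule in WT cells were also low in CpG (22 of 30 below 0.6, 73.3%), and those of Rela-/-Nfkb2-/- cells less so (13 of 26, 50%). Genes silent in Rela-/-Relb-/-Rel-/- cells and above background on all 8 other arrays were near the array (36 of 84, 42.9%). These differences were not tested.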

How the data were processed

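For each probe and array, the authors deposited an intensity without normalization and a detection p-value from GenomeStudio (version: not given in the sources used here). A further deposited table holds an intensity that was background-subtracted and quantile-normalized by a service company, which sets the level threshold and the signals described. Quantile normalization gives all arrays 1 distribution, so a shift of most genes would be removed.

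In R 4.3.3 with limma 3.58.1, neqc used the detection p-values for background correction, with an offset of 16, which pulls dim ratios toward 0, and normalized by quantiles on the log2 scale. The fit took the 13387 of 25697 probes whose detection p-value was under 0.05 on each array of some group. Each array had 11637 to 12599 probes above background and a median signal of 94.9 to 141.5, and the number of arrays limits the precision. The linear model held 6 group means (6 residual and 2.92 prior degrees of freedom). Symbols came from the platform annotation (23978 probes) and matched RefSeq for all 101 members.

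The members and lists were chosen with earlier results of these data known. Genes named were the 30 members of highest mean signal, every member called, every member on a marker list and the 3 nearest each threshold; others were named after their values were seen. Probe families were taken by symbol. Alternatives were other corrections, filters, tests, blocks and arrays left out. The code was tested on simulated arrays.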

Additional observations from a re-analysis of the deposited data

How the results depend on the processing

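The count of members was 101 under the rule as given, 169 when the other arrays needed a detection p-value of at least 0.01, 153 without the level threshold, 157 from the TNF arrays alone and 104 from the untreated arrays alone (91 and 94 of the 101 among them), and 95 to 117 with 1 array left out. The calls for TNF depended on how the spread was estimated. A fit restricted to the 4 arrays of Rela-/-Relb-/-Rel-/- cells and the methods' t-test each called 0 probes and 0 members in either direction. At unadjusted p under 0.05 the 4-array fit gave 8 of the 101 members higher and 23 lower, against 608 and 542 of 13387 probes. The t-test gave 7 members higher and 15 lower, against 488 and 516 of the 13387 probes. Median scaling called 76 probes up and 41 down, and 3 members up and 7 down. With 1 array left out, 33 to 212 probes and 2 to 8 members rose, and 10 to 96 probes and 3 to 10 members fell. Without untreated replicate 1 of Rela-/-Relb-/-Rel-/- cells 2 members rose and 4 fell, without untreated replicate 2 it was 4 and 3, and without TNF replicate 1 it was 4 and 10. The number of probes that rose or fell was also over 1.5 times lower without TNF replicate 2 of Rela-/-Relb-/-Rel-/- (55 fell), without either Rela-/-Nfkb2-/- TNF array or without each WT array in turn. Same-numbered Rela-/-Relb-/-Rel-/- arrays deviated together (r = 0.69 between treatments), as did those of the 2 mutant genotypes (r = 0.63 to 0.85), but WT and mutant arrays of a number did not (r = -0.20 to -0.01), and it was 0.67 between treatments in Rela-/-Nfkb2-/- and 0.29 in WT cells. As the labels give no shared culture or day and a contrast has only 2 numbers, they were not taken as pairs. With 1 replicate block for all genotypes 260 probes rose and 169 fell (8 and 11 members), and with a replicate block within genotype 420 and 341 (10 and 20 members, Ptger3 and Gpm6a now among those that fell). No setting turned the direction of a called member. Ivl, F2rl2, Rhbdl3 and Rapgef5 were called in all 12 fits with 1 array left out and in 11 of 13 other alternatives, the exceptions being the 4-array fit and the t-test. All of these but the exceptions pool arrays where the rule put the members at background. The median log2 lower bound over the other genotypes was 2.26, and 2.29 and 2.68 with median scaling and the authors' values. Members near background allow only bounds.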

Other observations

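Some members are neighbours in the genome. By RefSeq gene starts (GRCm38.p6), 8 pairs of members lay within 500 kb of each other and held 16 of the 101 genes (15.8%). The pairs were Edn2 and Foxo6, Cd55 and C4bp, Lgr5 and Tspan8, Krt14 and Jup, Foxa2 and Thbd, Car3 and Car2, Chn2 and Prr15, and Clec2e and Clec7a. Under the same rule turned to the other genotypes, 0 of 42 genes of Rela-/-Nfkb2-/- cells and 0 of 40 genes of WT cells lay in such pairs. Among genes silent in 1 genotype the shares were 8.85% of 113 for Rela-/-Relb-/-Rel-/-, 38.1% of 21 for Rela-/-Nfkb2-/- and 9.09% of 55 for WT cells. The sets differ in size, and larger sets can hold more pairs. No share over all named genes on the array was determined, so the shares are a description.

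In the fit of all 12 arrays, 3 of the 8 pairs held 1 gene called with TNF and a neighbour that was not. In the other 5 pairs neither was called. Of all 101 members 7 rose (6.93%) and 10 fell (9.90%) in that fit, so the counts over pairs are a description. Edn2 rose and Foxo6 changed by 0.13 ± 0.19, Lgr5 fell and Tspan8 changed by -0.40 ± 0.42, and Foxa2 rose and Thbd changed by -0.15 ± 0.57 (limma). The difference within a pair was not tested.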
